A study of Rattus norvegicus with 16 samples.

Results

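The comparison described here set the kidneys of 4 diabetic rats given sinomenine at 40 mg/kg (SIN40) against those of 4 diabetic rats given no sinomenine (DN), gene by gene, and used 8 of the 16 rats in the series. The rats were taken by group label alone, and every gene that passed the filter on low counts was tested. All 8 were male Sprague Dawley rats labelled 6 to 8 weeks old. Each had received streptozotocin at 45 mg/kg, a toxin of the insulin-producing beta cell, together with a high-glucose, high-fat diet. SIN40 rats were then dosed daily by gavage for 8 weeks, and DN rats received vehicle over the same time. Where levels are set beside the other groups, normal rats had citrate buffer and an ordinary diet, and SIN20 rats had the same diabetes with sinomenine at 20 mg/kg. Chemical loss of beta cells is the model here, and each library was bulk RNA of kidney tissue, so that fewer cells of a type and less RNA per cell cannot be told apart. The question was which kidney transcripts differed with the higher dose.

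Sinomenine is an alkaloid of the climbing plant Sinomenium acutum and is used in East Asia against rheumatoid arthritis. In diabetic nephropathy the glomerular and tubular basement membranes thicken with collagen, podocytes are lost and the proximal tubule takes up and metabolises a raised load of glucose and amino acids. The kidney also holds a strong circadian clock, in which BMAL1 (gene Arntl) pairs with CLOCK or NPAS2 to switch on genes of the period, cryptochrome and REV-ERB families, whose proteins then repress BMAL1 activity or the Arntl gene itself.

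The labelled tissue held the transcripts that define kidney. Across the 8 rats Umod, the loop of Henle protein uromodulin, ran from 1367 to 2302 CPM (counts scaled to library size), Lrp2, the proximal tubule uptake receptor megalin, from 1569.7 to 2629 CPM, Nphs1, the podocyte protein nephrin, from 22.6 to 61.99 CPM, and Aqp2, the collecting duct water channel, from 399 to 1266 CPM. The 8 libraries held 19616312 to 23054805 estimated counts, and Spearman correlations between any pair of them lay between 0.962 and 0.987. Library serial numbers ran in one block per group, so a library batch and the treatment cannot be told apart, and the hour at which the kidneys were taken is not given in the sources used here. DN replicate 3 stood apart in smooth muscle and urothelial transcripts, and the larger shifts without it are given beside the results.

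No gene of the 15530 tested passed edgeR's quasi-likelihood test at an adjusted p under 0.05, and the lowest adjusted p was 0.14. At an unadjusted p under 0.05 the same test listed 2657 genes, 17.1% of those tested, of which 1537 (9.9%) were higher and 1120 (7.21%) lower in SIN40. Adding a log2 fold change of at least 1 left 206 genes (1.33%), 106 higher (0.683%) and 100 lower (0.644%). In 1617 genes (10.4%) the 4 SIN40 rats did not overlap with the 4 DN rats, 998 of them higher (6.43%) and 619 lower (3.99%). At the adjusted threshold joined with that fold change, DESeq2 on the same counts called 58 genes (0.373%), 19 higher and 39 lower, and edgeR's exact test called 40 (0.258%), of which 34 were also DESeq2 calls. Without DN replicate 3 the quasi-likelihood test called 3 genes (0.0191% of 15725), the clock genes Arntl and Per3 and the nuclear receptor gene Ppard, and 284 (1.81%) passed the unadjusted p with the fold change, 171 higher (1.09%) and 113 lower (0.719%). At the unadjusted p alone that fit listed 9.93% higher and 7.73% lower. Without SIN40 replicate 4 the 2657 genes became 1672. Below, a gene is called higher or lower by its log2 fold change, each given with its standard error (SE), and a gene counted in a list is one at an unadjusted p under 0.05. All such genes had adjusted p between 0.14 and 0.292, so none of them is a call after correction by that test.

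**Figure D1:**
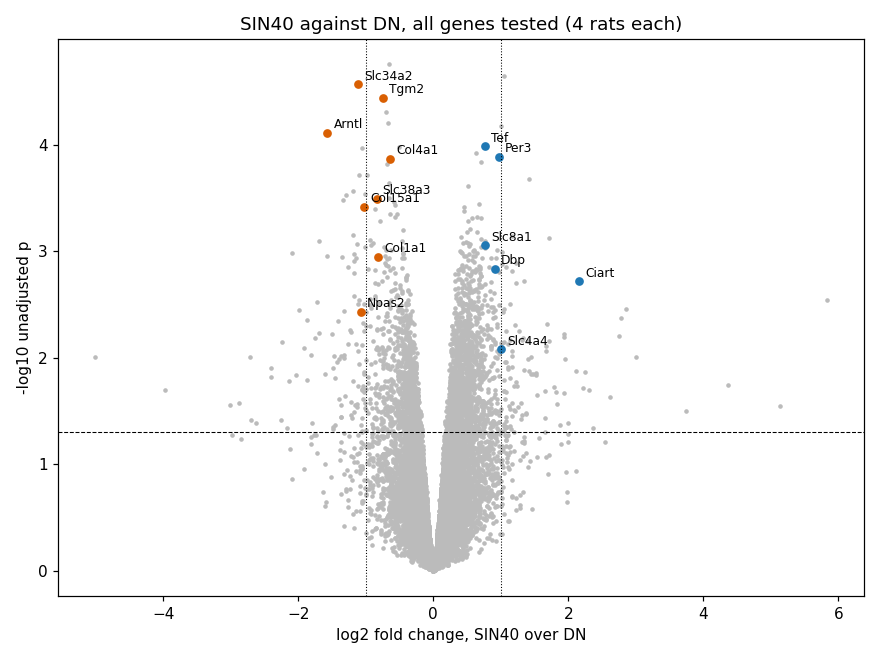
Log2 fold change of SIN40 over DN (horizontal axis) against -log10 of the unadjusted p of edgeR's quasi-likelihood test (vertical axis) for the 15530 genes tested, 1 point per gene, with clock, matrix and solute transport genes of the text labelled (orange lower, blue higher in SIN40). The dashed line marks an unadjusted p of 0.05, the dotted lines mark a log2 fold change of 1 either way, and no gene passed after adjustment.

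Of the genes tested in the 3 clock lists, 80% of the activators, 70% of the repressors and 66.7% of the output genes were at an unadjusted p under 0.05, beside 17.1% of all genes. Of 10 clock repressors 7 were higher and 0 lower in SIN40, with a median log2 fold change of 0.76 beside 0.007 over all genes tested. Of 9 clock output genes 6 were higher and 0 lower (median 0.46). Of 8 activators and related genes, 5 were tested, and 3 were lower and 1 higher (median -1.02). All genes gave 9.9% higher and 7.21% lower, and the counts of these 3 lists were the same without DN replicate 3.

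Arntl, which encodes the activator BMAL1, measured 17.3, 19.5, 10.2 and 20.1 CPM in DN rats 1 to 4 and 5.23, 4.92, 4.85 and 7.60 CPM in SIN40 rats 1 to 4. All 4 SIN40 rats lay below every DN rat, and the lowest DN rat was replicate 3. For Arntl the log2 fold change was -1.57 (SE 0.24) with an adjusted p of 0.148 by the quasi-likelihood test. It was -1.74 without DN replicate 3, where the adjusted p was 0.0415, and over all alternatives the adjusted p ran from 7.59e-07 to 0.392. Npas2, the partner of BMAL1 that can stand in for CLOCK, was at 5.05, 5.16, 4.56 and 7.43 CPM in DN and 1.64, 3.61, 2.099 and 3.19 CPM in SIN40. Npas2 was again lower in each SIN40 rat, with a log2 fold change of -1.07 (SE 0.28). Clock itself was at 26.2, 37.4, 34.2 and 35.9 CPM in DN and 38.8, 32.4, 28.7 and 49.2 CPM in SIN40, which overlapped (log2 fold change 0.16, SE 0.18). Nfil3, a repressor of the genes that the output factors activate, was lower by the test at -1.02 (SE 0.26), but DN replicate 3 at 3.58 CPM fell within the SIN40 range of 2.96 to 3.77 CPM.

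On the repressor side the period genes were higher. Per3 measured 18.2, 14.6, 23.2 and 14.05 CPM in DN and 37.2, 35.1, 33.4 and 31.8 CPM in SIN40. Even the highest DN rat, replicate 3, stayed below every SIN40 rat, and the log2 fold change was 0.97 (SE 0.16, adjusted p 0.148), or 1.14 without that rat (adjusted p 0.0434, and 7.12e-05 to 0.392 over all alternatives). Per2 was at 30.5, 26.9, 43.7 and 28.1 CPM in DN and 77.7, 53.7, 54.4 and 48.6 CPM in SIN40, which did not overlap (log2 fold change 0.86, SE 0.19). Per1 was at 50.5, 61.7, 72.2 and 27.8 CPM in DN and 72.6, 83.7, 97.3 and 80.97 CPM in SIN40, where SIN40 replicate 1 lay only just above DN replicate 3 (log2 fold change 0.66, SE 0.24). Cry2, a cryptochrome, was higher at 0.59 (SE 0.13), whereas Cry1 at 0.47 (SE 0.22) did not reach an unadjusted p under 0.05.

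Ciart encodes a repressor of the CLOCK and BMAL1 pair and had the highest log2 fold change of the clock genes, 2.16 (SE 0.51). Its level was 1.06, 1.72, 4.16 and 0.476 CPM in DN and 6.34, 9.61, 8.40 and 8.90 CPM in SIN40, against 0.249 ± 0.105 CPM in normal rats. DN replicate 3 was again the DN rat nearest to SIN40, and without it the fold change was 2.94. The 2 REV-ERB genes, which encode repressors of Arntl, went different ways. Nr1d2 was higher, at 22.9, 43.2, 52.7 and 39.1 CPM in DN and 58.7, 71.2, 71.5 and 91.2 CPM in SIN40 (log2 fold change 0.89, SE 0.23). Nr1d1 overlapped between groups, at 51.1, 94.2, 72.9 and 74.1 CPM in DN and 47.7, 85.1, 47.4 and 49.8 CPM in SIN40 (log2 fold change -0.34, SE 0.23). Bhlhe41, which encodes the E-box repressor DEC2, was higher at 1.04 (SE 0.45) with overlapping rats, and its relative Bhlhe40 was at -0.26 (SE 0.17) and did not pass at an unadjusted p under 0.05.

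Among the output genes, Tef and Dbp encode transcription factors that bind D-box sites and drive daily expression of metabolic and detoxifying genes. Tef measured 128, 131, 176 and 122 CPM in DN and 242, 236, 242 and 226 CPM in SIN40. Its 4 SIN40 rats spanned a narrow range above all DN rats, with a log2 fold change of 0.76 (SE 0.12) and an adjusted p of 0.148 (3.94e-05 to 0.392 over the alternatives). Dbp measured 72.6, 107, 143 and 85.2 CPM in DN and 179.5, 223, 214 and 151 CPM in SIN40, where SIN40 replicate 4 lay closest to DN replicate 3 (log2 fold change 0.91, SE 0.21). Usp2, a deubiquitinase under clock control, was at 73.3, 51.6, 80.1 and 35.8 CPM in DN and 128, 108, 134 and 119 CPM in SIN40 (log2 fold change 1.02, SE 0.22). Wee1, a clock-controlled kinase that holds back mitosis, was higher at 0.83 (SE 0.19), and Hlf, the third factor of the D-box family, at 0.46 (SE 0.13).

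Transcripts of these genes cycle over the day in kidney, and the levels in all 4 groups are given side by side. Arntl averaged 38.3 ± 4.51 CPM in normal, 16.8 ± 4.57 CPM in DN, 4.08 ± 1.75 CPM in SIN20 and 5.65 ± 1.31 CPM in SIN40 rats (SD, n = 4 each). Dbp averaged 29.8 ± 10.2, 102 ± 30.9, 179 ± 55.7 and 192 ± 32.9 CPM in the same order, and Per3 8.75 ± 1.65, 17.5 ± 4.23, 36.04 ± 5.94 and 34.4 ± 2.29 CPM. In these 3 genes the SIN40 mean was further from the normal mean than the DN mean was.

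**Figure D2:**
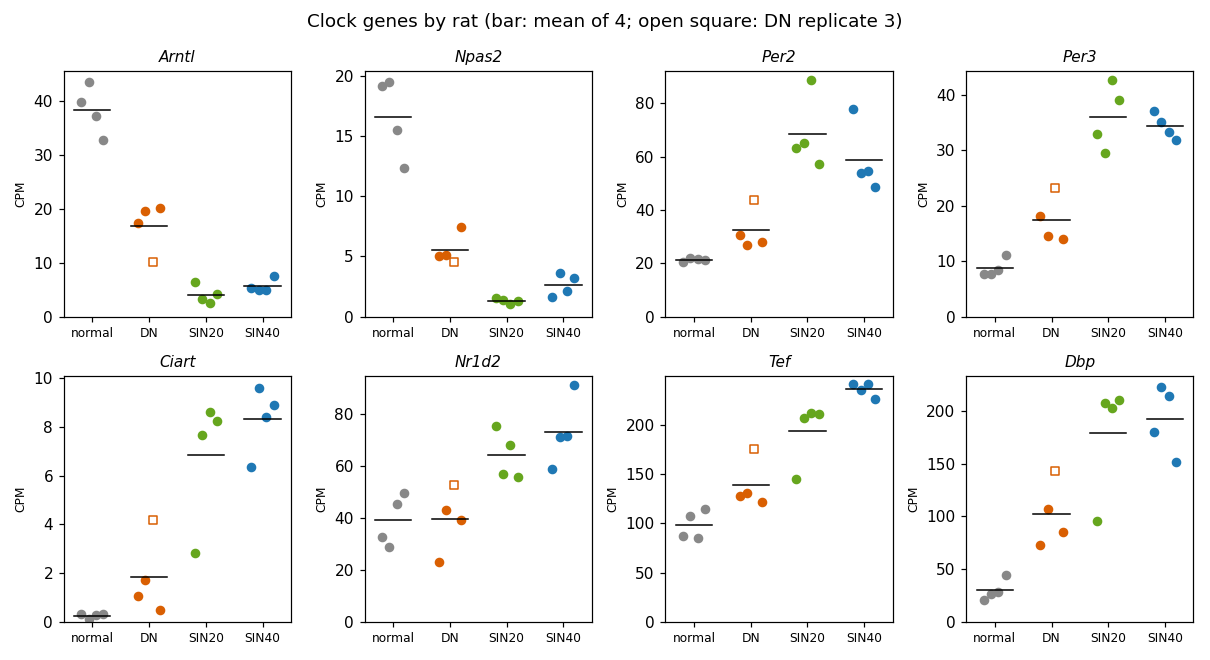
Level of 8 clock genes in CPM (vertical axes, linear and starting at 0) in each rat of the normal, DN, SIN20 and SIN40 groups, 1 point per rat with a bar at the mean of 4 and DN replicate 3 as an open square. Arntl and Npas2 sit lower in SIN40 than in DN, and Per2, Per3, Ciart, Nr1d2, Tef and Dbp sit higher, with DN replicate 3 often the DN rat nearest to SIN40.

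The promoters of genes on the 2 sides of this difference are shown because clock proteins read short letter patterns in them. RefSeq promoters on rat build GRCr8 were found for 20 of 27 clock genes, and the 250 bases before each start were searched on both strands. The E-box CACGTG, bound by BMAL1 and CLOCK, was in 5 of the 20 against 5.59% of 33469 promoters. The letters AGGTCA, the core of the element read by ROR and REV-ERB proteins, were in 3 of the 20 against 14.1% of promoters, and the D-box letters TTATGTAA in 1 against 0.828%. A match describes letters in this window only. In the 3 sequences below, read 5′ to 3′ along the gene's strand, capitals mark CACGTG in Ciart (chr2:186112247-186112496, minus strand) and Tef (chr7:115206577-115206826, plus strand) and AGGTCA in Arntl (chr1:176766078-176766327, plus strand, named Bmal1 in RefSeq).
Ciart: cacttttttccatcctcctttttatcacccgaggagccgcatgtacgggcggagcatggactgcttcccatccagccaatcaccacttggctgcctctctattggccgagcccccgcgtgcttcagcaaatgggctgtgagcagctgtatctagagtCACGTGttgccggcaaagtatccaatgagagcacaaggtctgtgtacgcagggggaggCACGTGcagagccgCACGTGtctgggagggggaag
Tef: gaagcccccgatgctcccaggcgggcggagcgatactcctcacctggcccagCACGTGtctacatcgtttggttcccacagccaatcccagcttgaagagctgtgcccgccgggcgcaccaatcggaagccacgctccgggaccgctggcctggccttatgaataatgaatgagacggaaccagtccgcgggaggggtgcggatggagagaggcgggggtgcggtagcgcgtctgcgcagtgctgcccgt
Arntl: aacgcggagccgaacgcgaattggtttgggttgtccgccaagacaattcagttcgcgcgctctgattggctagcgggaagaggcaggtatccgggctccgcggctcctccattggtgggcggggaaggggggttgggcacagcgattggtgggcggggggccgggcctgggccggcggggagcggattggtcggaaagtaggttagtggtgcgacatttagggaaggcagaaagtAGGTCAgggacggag
Ciart held 3 E-boxes in its window and Tef held 1, while Arntl held AGGTCA 15 bases before its start and no E-box. The letters did not divide the genes by direction. Of the other genes with an E-box, Bhlhe41 was higher, but Nr1d1 and Bhlhe40 did not pass at an unadjusted p under 0.05. AGGTCA was also in Nr1d2 and Usp2, which were higher where Arntl was lower, and no E-box was in the windows of Per1, Per2, Per3, Cry2 or Dbp, all of them higher.

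Basement membrane and interstitial matrix genes were lower more often than higher. Of 31 collagen and matrix genes tested other than collagen IV and laminins, 8 were lower and 0 higher, with a median log2 fold change of -0.21. That was 25.8% of them, beside 7.21% lower among all genes and 17.1% in either direction. Without DN replicate 3 the count was again 8 and the median -0.13. Of 19 collagen IV, laminin and nidogen genes 3 were lower and 0 higher (15.8%, median -0.09), and without DN replicate 3 there were 3 lower and 1 higher. Col4a1 and Col4a2 encode collagen IV chains found in basement membranes throughout the body and are read in opposite directions from one shared promoter. Col4a1 measured 371, 353, 281 and 314 CPM in DN and 201, 218, 202 and 224 CPM in SIN40, and Col4a2 measured 286, 267, 226 and 227 CPM in DN and 156, 164, 144 and 153 CPM in SIN40. Neither gene's groups overlapped, with log2 fold changes of -0.64 (SE 0.11) and -0.70 (SE 0.10, adjusted p 0.148 for each, and 1.17e-07 to 0.392 over the alternatives for Col4a2). Averages were 203 ± 28.97 CPM in normal and 148 ± 19.02 CPM in SIN20 rats for Col4a2 (SD, n = 4).

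Col1a1, the main chain of fibrillar collagen I, was at 77.9, 98.2, 111 and 57.9 CPM in DN and 47.5, 49.2, 45.9 and 53.3 CPM in SIN40 (log2 fold change -0.82, SE 0.18, or -0.67 without DN replicate 3, its highest rat). Col15a1, a collagen of the basement membrane zone, was at 13.7, 10.1, 12.3 and 10.9 CPM in DN and 5.60, 7.88, 4.95 and 4.65 CPM in SIN40 (log2 fold change -1.02, SE 0.19). In both, no SIN40 rat reached a DN rat. Tgm2, which encodes the matrix cross-linking enzyme transglutaminase 2, measured 196, 162, 212 and 181 CPM in DN and 123, 106, 116 and 106 CPM in SIN40, and its log2 fold change of -0.74 (SE 0.10) had one of the lowest adjusted p values, 0.14. Sparc, a collagen-binding matrix protein gene, was lower by a smaller step (-0.35, SE 0.09), as were Col5a1 (-0.46, SE 0.13) and the nidogen gene Nid2 (-0.37, SE 0.12). In the list of 40 tested genes of TGF-beta signalling and fibrosis, 10 were lower and 4 higher (35%, beside 17.1% of all genes), with a median of -0.08. Without DN replicate 3 there were 7 lower and 5 higher. With all rats the lower ones included Tgfbi (-0.55, SE 0.14) and the matrix protease gene Mmp14 (-0.53, SE 0.14). The signal carriers Smad2 (0.48, SE 0.10) and Smad4 (0.41, SE 0.08) were higher in every SIN40 rat.

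Other cell types of the glomerulus and vessels showed small differences. Among 22 endothelial and VEGF genes 5 were lower and 0 higher, including Cdh5, the endothelial cadherin gene (-0.31, SE 0.11), and Egfl7 (-0.38, SE 0.12). That was 22.7% of the list, beside 7.21% lower among all genes and 17.1% in either direction. Without DN replicate 3 there were 4 lower and 1 higher. Of 19 podocyte genes 3 were higher and 2 lower (26.3%, beside 17.1% of all genes). Nephrin (Nphs1) overlapped at 0.19 (SE 0.29).

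Genes of solute transport in the tubule lay in both directions. Of 35 proximal tubule genes 5 were higher and 5 lower (28.6%, beside 17.1% of all genes listed in either direction). Of 29 genes of the loop of Henle and distal tubule 4 were higher and 0 lower (13.8%, beside 9.9% higher among all genes). Slc34a2, a sodium-phosphate cotransporter gene, measured 75.2, 89.1, 59.98 and 64.04 CPM in DN and 26.8, 38.2, 31.02 and 36.1 CPM in SIN40. The lowest DN rat was well above the highest SIN40 rat, and the log2 fold change of -1.12 (SE 0.15) had an adjusted p of 0.14 (4.77e-08 to 0.392 over the alternatives). Slc34a1, the main phosphate transporter gene of the proximal tubule, overlapped at 0.06 (SE 0.22). Slc38a3, a glutamine transporter gene of the proximal tubule, was at 429.9, 466, 289 and 333 CPM in DN and 238, 216, 207 and 185 CPM in SIN40 (log2 fold change -0.84, SE 0.16). Slc5a1, which encodes the glucose transporter SGLT1, was at -0.52 (SE 0.14), the urate transporter gene Slc22a12 at -0.54 (SE 0.15) and the organic cation transporter gene Slc22a2 at -0.56 (SE 0.15).

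Some genes of bicarbonate, calcium and acid handling were higher. Slc4a4, the sodium-bicarbonate cotransporter gene of the proximal tubule, measured 77.5, 147, 246 and 159 CPM in DN and 395, 327, 217 and 332 CPM in SIN40. SIN40 replicate 3 fell below DN replicate 3 here, so the groups overlapped, and the log2 fold change was 1.01 (SE 0.31), or 1.32 without DN replicate 3. Slc8a1, the sodium-calcium exchanger gene, was at 38.8, 43.9, 46.9 and 56.3 CPM in DN and 87.7, 94.997, 57.8 and 77.5 CPM in SIN40 with no overlap (log2 fold change 0.77, SE 0.16). Calb1, which encodes the distal tubule calcium buffer calbindin, was higher at 0.70 (SE 0.24) with overlap, and the plasma membrane calcium pump gene Atp2b1 at 0.35 (SE 0.14). Atp6v0d2, a proton pump subunit gene of the collecting duct, was at 11.9, 11.6, 14.1 and 18.1 CPM in DN and 20.2, 20.4, 21.97 and 23.6 CPM in SIN40 (log2 fold change 0.63, SE 0.15). Of 22 collecting duct genes tested 2 were higher and 0 lower, which at 9.09% was near the 9.9% of all genes that were higher. Leaving out DN replicate 3 gave 1 higher and 1 lower.

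Genes of amino acid and glutathione metabolism lay in both directions. Gpt2, the mitochondrial alanine aminotransferase gene, measured 15.8, 17.8, 23.1 and 24.7 CPM in DN and 44.5, 43.98, 38.5 and 35.9 CPM in SIN40, with a log2 fold change of 1.00 (SE 0.15, adjusted p 0.148, 1.54e-05 to 0.392 over the alternatives). Normal rats averaged 7.42 ± 1.55 CPM, below both. Oat, which encodes ornithine aminotransferase, was lower instead, at 1211, 1162, 1178 and 1250.2 CPM in DN and 807, 642, 889 and 731 CPM in SIN40 (log2 fold change -0.65, SE 0.11). Ggt1, the brush border gamma-glutamyltransferase that splits glutathione, was at 899, 938, 900.3 and 876 CPM in DN and 645, 539, 583 and 499 CPM in SIN40 (log2 fold change -0.67, SE 0.10, adjusted p 0.148). In each of these 3 genes the groups did not overlap. Of 25 gluconeogenesis and ammoniagenesis genes tested, 4 were higher and 4 lower (32%, beside 17.1% of all genes), or 2 higher and 4 lower without DN replicate 3.

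Lipid genes were lower more often than higher. Of 48 genes of fatty acid oxidation and ketogenesis 10 were lower and 2 higher (25%, median -0.08). Of 41 genes of sterol and fatty acid synthesis 6 were lower and 2 higher (19.5%, median -0.04). Among all genes 17.1% were listed, so the second list was near that share. Dhcr7, which encodes an enzyme of cholesterol synthesis, was at 174, 109, 106 and 126 CPM in DN and 72.4, 89.3, 80.9 and 71.8 CPM in SIN40. Its groups did not overlap, and the log2 fold change was -0.71 (SE 0.16). Cyp4a8, a fatty acid omega-hydroxylase gene, was at 1089, 1309, 1052 and 996 CPM in DN and 625, 668, 844 and 810.2 CPM in SIN40 (log2 fold change -0.59, SE 0.14). The lipid droplet coat gene Plin2 was at -0.62 (SE 0.15) and the acyl-CoA thioesterase gene Acot1 at -0.56 (SE 0.11), neither with overlap.

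Ppard encodes the fatty acid receptor PPAR-delta, and it is named because it was 1 of the 3 calls without DN replicate 3, so it was chosen after its values were seen. Ppard was at 53.6, 54.5, 26.8 and 41.7 CPM in DN and 21.9, 22.4, 24.3 and 23.8 CPM in SIN40. DN replicate 3 lay just above the SIN40 rats and the other DN rats far above them, so that the log2 fold change was -0.93 (SE 0.20) with all rats and -1.11 without it (adjusted p 0.174 and 0.0415, and 0.00251 to 0.392 over all alternatives). Gpam, also chosen after its values were seen, encodes the first enzyme of glycerolipid synthesis and had the lowest unadjusted p of all genes. It was at 54.8, 63.4, 57.4 and 63.9 CPM in DN and 39.6, 36.01, 37.9 and 38.6 CPM in SIN40, with a log2 fold change of -0.65 (SE 0.08) and an adjusted p of 0.14.

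Ndrg1, a hypoxia-responsive gene that is abundant in kidney, measured 2517, 2618, 2915 and 3627 CPM in DN and 2055, 1424, 1625 and 1667 CPM in SIN40, without overlap (log2 fold change -0.79, SE 0.16). Of 36 glycolysis and hypoxia genes 4 were lower and 3 higher (19.4%, near the 17.1% of all genes). Among them were the enolase gene Eno1 (-0.38, SE 0.13) and the mitophagy gene Bnip3 (0.26, SE 0.08). Agt, which encodes angiotensinogen, the precursor of angiotensin, was at 44.5, 78.04, 56.7 and 68.9 CPM in DN and 33.8, 35.4, 44.3 and 36.1 CPM in SIN40 (log2 fold change -0.73, SE 0.17). Ace, the converting enzyme gene, was at -0.53 (SE 0.23) with overlap, and of 13 renin-angiotensin genes tested 2 were lower and 0 higher, or 1 and 0 without DN replicate 3. With all rats that was 15.4% of the list, beside 7.21% lower among all genes and 17.1% in either direction.

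Of 18 tested genes known to respond to glucocorticoid, 6 were higher and 0 lower (33.3%, beside 9.9% higher among all genes, median 0.41), and the other 12 did not pass at an unadjusted p under 0.05. Leaving out DN replicate 3 gave 6 higher and 1 lower. The list shares Per1 with the clock list. Tsc22d3, which encodes the anti-inflammatory protein GILZ, measured 56.5, 37.5, 64.7 and 32.1 CPM in DN and 67.4, 78.96, 114 and 101 CPM in SIN40. SIN40 replicate 1 was only just above DN replicate 3, and the log2 fold change was 0.92 (SE 0.24). Fkbp5, a chaperone gene that tempers the glucocorticoid receptor, was at 44.9, 24.1, 41.3 and 25.6 CPM in DN and 45.3, 55.9, 73.9 and 82.8 CPM in SIN40 (log2 fold change 0.92, SE 0.25), again with SIN40 replicate 1 close to the DN rats. The sodium-retaining kinase gene Sgk1 (0.59, SE 0.18) and the transcription factor gene Klf9 (0.65, SE 0.20) were higher with overlap. Normal rats averaged 78.9 ± 12.2 CPM of Tsc22d3 and 66.1 ± 24.2 CPM of Fkbp5, against DN means of 47.7 ± 15.4 and 33.98 ± 10.7 CPM.

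In the IL-6, JAK, STAT and SOCS list, 35 of 40 genes were tested, and 4 were higher and 5 lower, around a median of -0.07. That was 25.7% of those tested, beside 17.1% of all genes. Leaving out DN replicate 3 gave 3 higher and 5 lower. Socs3, the feedback inhibitor switched on by STAT3, was at 7.21, 7.33, 4.92 and 6.90 CPM in DN and 3.38, 3.28, 2.57 and 3.05 CPM in SIN40. The groups did not overlap (log2 fold change -1.10, SE 0.19, adjusted p 0.167). Stat3 itself overlapped at -0.22 (SE 0.13), and the shared receptor gene Il6st at 0.19 (SE 0.09) did not pass at an unadjusted p under 0.05. The kinase genes went the other way from Socs3, with Jak1 at 0.23 (SE 0.09) and Jak2 at 0.51 (SE 0.18), and each was higher in every SIN40 rat. Il20ra, a receptor subunit for IL-20 family cytokines, was at 1.73, 1.97, 1.43 and 2.00 CPM in DN and 6.86, 4.27, 4.11 and 3.82 CPM in SIN40 (log2 fold change 1.42, SE 0.25).

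Of 7 core network targets of the study that were tested, Jak2 alone was listed at an unadjusted p under 0.05 (14.3%, beside 17.1% of all genes). Ptgs2, the cyclooxygenase 2 gene, spread from 1.06 to 11.2 CPM in SIN40 and from 1.76 to 3.85 CPM in DN (log2 fold change 1.10, SE 0.57, or 0.59 without SIN40 replicate 4). Il1b was at -0.65 (SE 0.41), Mmp9 at -0.65 (SE 0.55) and Nfkb1 at 0.05 (SE 0.08), and their groups overlapped. Of the network's enzyme genes 8 of 10 were tested, with 2 higher and 4 lower (75%, beside 17.1% of all genes). The study chose these genes on the same libraries, so the count is not independent evidence of a direction. Ada, adenosine deaminase, was at 17.5, 16.7, 18.9 and 23.3 CPM in DN and 13.8, 7.74, 6.81 and 6.68 CPM in SIN40, without overlap (log2 fold change -1.13, SE 0.24). Atp12a, a proton-potassium pump gene, was at 6.77, 11.7, 5.68 and 7.86 CPM in DN and 5.70, 1.13, 1.35 and 1.36 CPM in SIN40, where SIN40 replicate 1 alone reached the DN range (log2 fold change -1.75, SE 0.51, or -2.64 without that rat). Polr2h, an RNA polymerase subunit gene, was at 5.58, 5.01, 4.47 and 4.19 CPM in DN and 12.9, 12.8, 12.5 and 5.28 CPM in SIN40, where SIN40 replicate 4 stayed in the DN range (log2 fold change 1.17, SE 0.27). Cryz, the zeta-crystallin quinone reductase gene, was lower at -1.02 (SE 0.29) with SIN40 replicate 4 above DN replicate 1.

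Genes of growth arrest were among those listed. Cdkn1a, the gene of the cell cycle inhibitor p21, was at 18.8, 16.8, 15.4 and 12.05 CPM in DN and 7.50, 7.74, 8.96 and 6.39 CPM in SIN40, a log2 fold change of -1.05 (SE 0.17) with no overlap. In its list of 22 tested p53 and growth arrest genes 6 were lower and 2 higher (36.4%, beside 17.1% of all genes), while the median was 0.05. The lower ones included Phlda3 (-0.75, SE 0.21) and Plk2 (-0.57, SE 0.17). Of 27 tubular injury genes 3 were lower and 0 higher, namely Sox9 (-0.67, SE 0.20), Anxa3 (-0.41, SE 0.12) and Plaur (-0.80, SE 0.24). That was 11.1% of the list, beside 7.21% lower among all genes and 17.1% in either direction. Of 31 cell cycle genes 3 were higher and 0 lower, namely Top2a, Kif11 and Ccne2, which at 9.68% was near the 9.9% of all genes that were higher. Top2a at 1.16, 0.328, 1.63 and 5.08 CPM in SIN40 was led by replicate 4, with a log2 fold change of 2.12 (SE 0.70), or 1.13 without that rat.

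Immune genes showed few differences. Of 34 leukocyte genes 5 were lower and 0 higher (median -0.19), including Jchain, the immunoglobulin joining chain gene of plasma cells (-0.89, SE 0.26), and Cd4 (-0.42, SE 0.14). Those 5 were 14.7% of the list, beside 7.21% lower among all genes and 17.1% in either direction. Without DN replicate 3 there were 3 lower and 1 higher (median -0.3). Of 35 interferon-stimulated genes 4 were higher and 0 lower (median 0.22), which at 11.4% was near the 9.9% of all genes that were higher. Ifi44l (0.88, SE 0.24) had the smallest unadjusted p of the 4, though not the largest fold change. Leaving out DN replicate 3 gave 2 higher and 0 lower (median 0.15). Nlrp3, the inflammasome sensor gene, was at 3.14, 3.19, 2.15 and 3.67 CPM in DN and 1.80, 1.88, 1.49 and 1.65 CPM in SIN40, without overlap (log2 fold change -0.83, SE 0.23). In its list of 29 tested NF-kB and inflammasome genes 4 were lower and 1 higher (17.2%, near the 17.1% of all genes). The complement inhibitor gene Serping1 was likewise lower without overlap (-0.51, SE 0.08, adjusted p 0.148). Of 26 complement genes tested 3 were lower and 2 higher (19.2%, near the same share). Leaving out DN replicate 3 gave 1 lower and 5 higher complement genes.

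None of 6 erythroid genes tested passed at an unadjusted p under 0.05, and the alpha globin gene Hba-a1 overlapped at -0.44 (SE 0.34). Without DN replicate 3, 3 of the 6 were lower, beside 7.73% of all genes in that fit. The median of the 6 went from -0.37 to -0.6. Outside the lists, Rnf125, a ubiquitin ligase gene, was at 11.5, 19.9, 14.4 and 19.2 CPM in DN and 8.55, 6.24, 5.55 and 8.18 CPM in SIN40 (log2 fold change -1.19, SE 0.21). Ihh, the gene of the signalling protein Indian hedgehog, was at 22.2, 23.2, 13.1 and 19.9 CPM in DN and 9.71, 11.9, 10.4 and 6.73 CPM in SIN40 (log2 fold change -1.01, SE 0.22). Fmo2, a flavin monooxygenase gene, was at 52.4, 58.7, 85.8 and 93.8 CPM in DN and 131, 109.5, 141 and 174 CPM in SIN40 (log2 fold change 0.93, SE 0.21). The retinoic acid-degrading enzyme genes Cyp26a1 (-1.72, SE 0.44) and Cyp26b1 (-0.96, SE 0.22) were both lower without overlap. Fmo2 and Cyp26b1 are members of the cytochrome P450 and xenobiotic list. Of its 30 genes tested 2 were higher and 3 lower (16.7%, near the 17.1% of all genes), or 4 of each without DN replicate 3. The calcium-binding protein gene Cabp2 had the lowest log2 fold change among the named genes whose groups did not overlap, -2.10 (SE 0.46), at 3.05, 2.88, 1.34 and 4.24 CPM in DN and 0.581, 1.22, 0.373 and 0.484 CPM in SIN40.

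**Figure D3:**
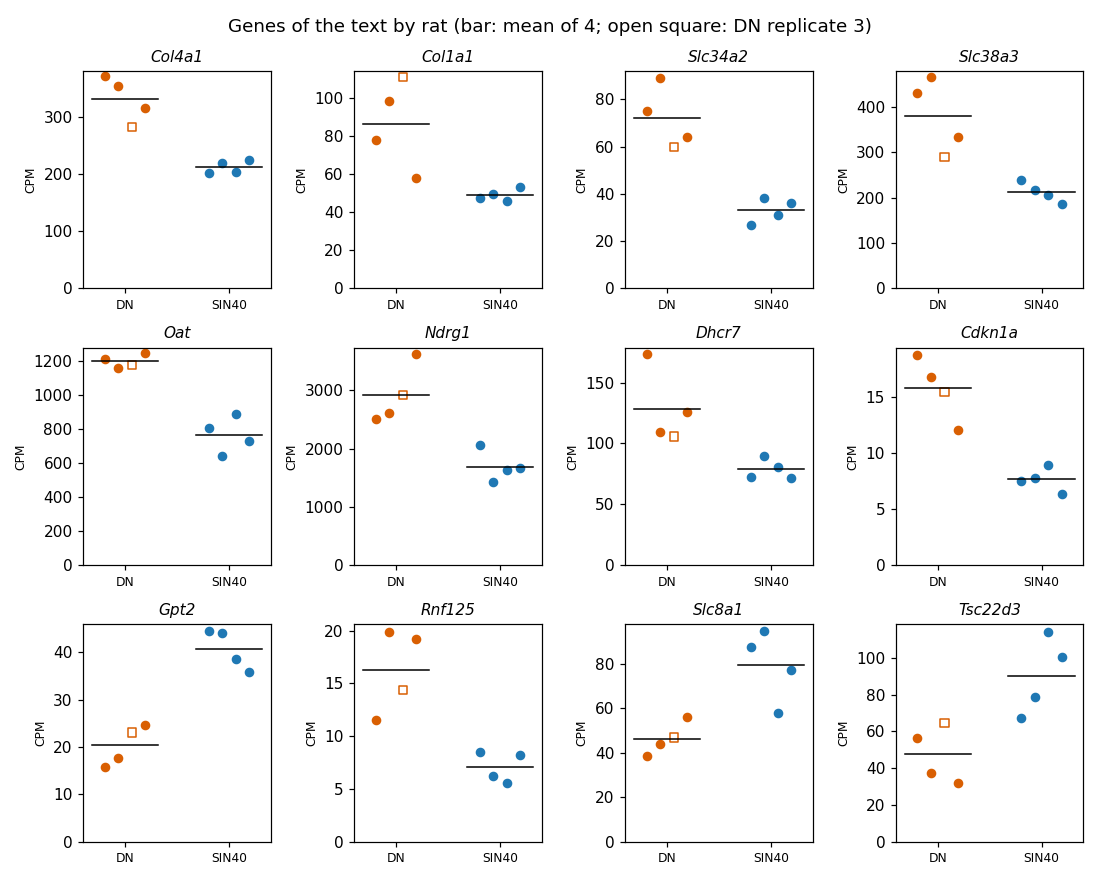
Level in CPM (vertical axes, linear and starting at 0) of 12 genes of matrix, transport, metabolism, growth arrest and ubiquitin ligation in each DN and SIN40 rat, 1 point per rat with a bar at the mean of 4 and DN replicate 3 as an open square. Groups are apart in all 12, with SIN40 higher for Gpt2, Slc8a1 and Tsc22d3 and lower for the other 9.

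Some of the lowest fold changes came from DN replicate 3 alone. Actg2, the smooth muscle gamma-actin gene, was at 2.74, 1.47, 101 and 1.24 CPM in DN and 0.950, 0.750, 2.99 and 2.08 CPM in SIN40, so the log2 fold change of -3.97 (SE 1.44) became -0.10 without that rat. Upk1a, a urothelial plaque gene, was at 3.23, 0.759, 37.8 and 3.67 CPM in DN and 0.106, 1.27, 3.08 and 2.52 CPM in SIN40 (-2.70, SE 1.13, then -0.54). Over the 17 muscle genes tested 8 were lower and 0 higher (47.1%, beside 7.21% lower among all genes), with a median of -0.73. Without the rat 2 were lower and the median was -0.1. Summed levels of the muscle list ran from 775 to 1885 CPM in DN and from 815 to 847 CPM in SIN40. For 12 urothelial and keratin genes the median went from -0.8 to 0.06. Among the 100 genes lower at an unadjusted p under 0.05 and at that fold change, DN replicate 3 was the highest rat in 23, and 74 were listed again without it, as were 81 of the 106 higher ones. By contrast, all 17 clock genes at an unadjusted p under 0.05 were further from 0 without this rat. A second single-rat value was Hmox1, the heme oxygenase 1 gene, at 707 CPM in DN replicate 1 and from 5.57 to 11.3 CPM in the other DN rats, against 5.13 to 6.39 CPM in SIN40. Its log2 fold change was -5.01 (SE 1.57) with all rats and -0.58 without DN replicate 1.

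**Figure D4:**
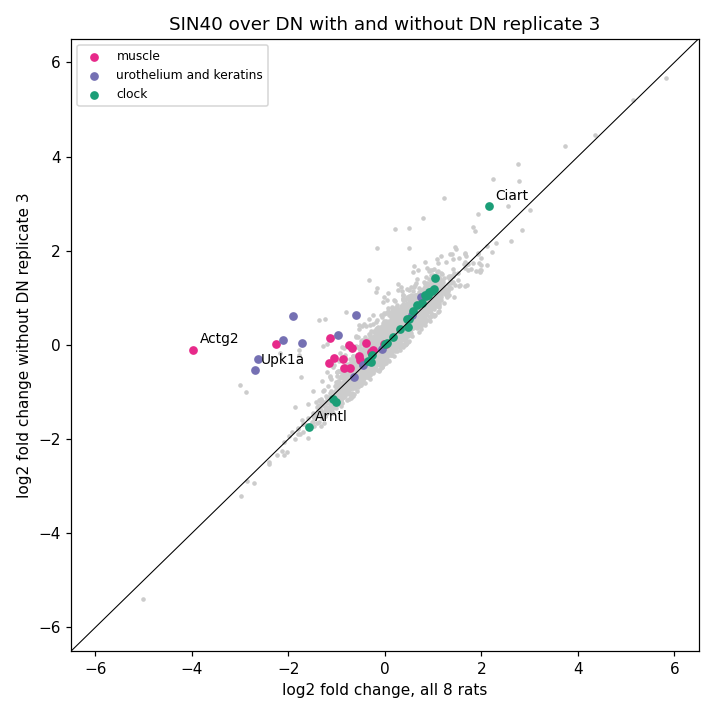
Log2 fold change of SIN40 over DN with all 8 rats (horizontal axis) against the same without DN replicate 3 (vertical axis), 1 point per gene tested in both, with muscle, urothelial and clock list genes coloured. The diagonal marks equal values; muscle and urothelial genes such as Actg2 and Upk1a lie far above it on the left, and clock genes lie near it.

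Fold changes also went with gene length. Genes were put into 5 equal groups by transcript length. In the group with the shortest transcripts the median log2 fold change was -0.06, and 4.63% were higher and 9.89% lower at an unadjusted p under 0.05. In the group with the longest it was 0.12, with 18.7% higher and 4.28% lower. DN replicate 4 had a median deviation of -0.15 from the 8-rat mean in the longest group against 0.13 in SIN40 replicate 4. A fit that removed each rat's length trend, added after seeing the data, listed 2510 genes at an unadjusted p under 0.05 (1300 higher) and 200 at that fold change. Counts in some lists moved with it, both in lists of short genes and in others. Of 75 nuclear oxidative phosphorylation genes 11 were lower and 0 higher before (14.7%, beside 7.21% lower among all genes), but 1 was lower and 5 higher after that step. Without DN replicate 3 and with no such step, 26 of the 75 were lower and 0 higher (median -0.18, beside 7.73% lower among all genes in that fit). Of 72 ribosomal protein genes tested 8 were lower and 3 higher (15.3%, beside 17.1% of all genes). The ribosomal counts became 3 of each with the length step, and 8 lower and 1 higher without DN replicate 3. Clock repressors (7 higher), clock outputs (6 higher) and glucocorticoid-response genes (6 higher) had the same counts after the length step. Matrix genes other than collagen IV and laminins went from 8 to 9 lower (median -0.21 to -0.28). The collagen IV and laminin list went from 3 to 5 lower (median -0.09 to -0.23). The IL-6, JAK, STAT and SOCS list went from 4 higher and 5 lower to 3 and 7. The core network targets went from 1 higher and 0 lower to 1 of each. The insulin, IGF and EGF list went from 5 higher and 2 lower to 3 and 2 (median 0.1 to 0.02). Gluconeogenesis and ammoniagenesis genes went from 4 higher and 4 lower to 2 and 4. Proximal tubule genes went from 5 higher and 5 lower to 3 and 6. The podocyte median went from 0.14 to -0.02. The cause of the length trend was not tested.

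**Figure D5:**
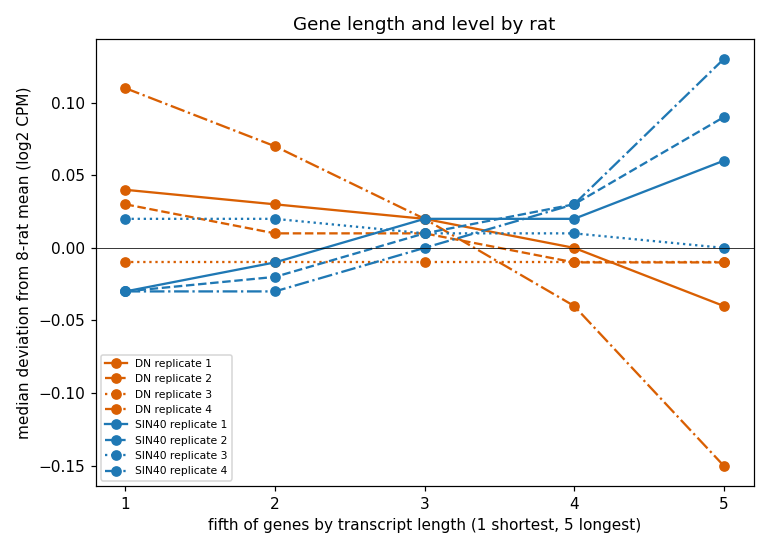
Median deviation of each rat's log2 CPM from the mean of the 8 rats (vertical axis) in 5 equal groups of genes from shortest to longest transcript (horizontal axis), 1 line per rat, DN in orange and SIN40 in blue. DN replicate 4 falls to -0.15 in the longest group and SIN40 replicate 4 reaches 0.13, while DN replicate 3 is flat.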

How the data were processed

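Kidney RNA of 16 rats in 4 groups was sequenced by the authors from poly(A) libraries, and the 8 DN and SIN40 libraries were compared here. The authors deposited estimated counts per gene, which were not normalised. Per the study's methods reads were trimmed with SeqPrep and Sickle and aligned with TopHat to rat build Rnor_6.0, and the submitters' processing notes also name Bowtie, RSEM and edgeR without a role. Of the 35849 rows, some are loci assembled from reads, which were tested but not named. The deposited table holds 4 library columns that no sample record names and 5 mean columns, none of which was used.

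Estimated counts were rounded to whole numbers and tested with edgeR 4.0.16 in R 4.3.3: filterByExpr, TMM scaling, a quasi-likelihood fit to the 8 rats and Benjamini-Hochberg adjustment over 15530 genes. CPM values are counts scaled by the TMM-adjusted library size. Labels number the libraries of a group separately, and each was taken as 1 rat, so p-values measure the spread between these libraries. Thresholds were an adjusted p of 0.05 with a log2 fold change of 1, and an unadjusted p of 0.05. Scripts were tested on simulated data. DESeq2 1.42.0, the exact test, a robust fit, another scaling, other filters, all rats in one fit, a replicate block, another prior count, a length correction and each rat left out were alternatives. The members and gene lists were chosen with earlier results of these data known. Named genes were, per direction, the 12 with the smallest p (under 0.05), a mean of at least 1 CPM, a log2 fold change of at least 1 and groups that do not overlap, the 6 such with a mean of at least 100 CPM at any fold change and the 5 largest fold changes, all members of the clock, JAK-STAT and target lists, up to 4 of each other list, and the 8 most moved by DN replicate 3. Not all are printed. Replicate numbers did not pair rats, as same-numbered rats gave correlations of deviations from -0.219 to 0.08. Depth of 19616312 to 23054805 counts limits the precision of genes near 1 CPM.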

Additional observations from a re-analysis of the deposited data

Results flagged for a closer look

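In 220 groups of 4 rats (the DN and SIN40 rats of 110 printed genes), 17 held 1 rat further from the others than Dixon's critical value for 4 samples allows, 8 in DN and 9 in SIN40, where chance flags about 1 in 20 groups. No explanation of these values was tested.

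In DN, replicate 3 was the high rat for Actg2 at 101.1 CPM (others 1.24 to 2.74), Upk1a at 37.8 CPM (others 0.759 to 3.67) and Wee1 at 20.3 CPM (others 11.4 to 12.8). DN replicate 1 was high for Hmox1 at 707 CPM (others 5.57 to 11.3) and Cry1 at 16.1 CPM (others 8.28 to 8.80 CPM). DN replicate 4 was high for Serping1 at 134 CPM and Plin2 at 135 CPM, and DN replicate 2 for Aadat at 3277 CPM (others 2422 to 2557).

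In SIN40, replicate 1 was high for Il20ra at 6.86 CPM, Ada at 13.8 CPM (others 6.68 to 7.74) and Atp12a at 5.70 CPM (others 1.13 to 1.36). Replicate 4 was high for Arntl at 7.60 CPM (others 4.85 to 5.23) and Pik3ca at 49.8 CPM, and low for Polr2h at 5.28 CPM (others 12.5 to 12.9) and Gpx4 at 464 CPM. Replicate 2 was high for Nr1d1 at 85.1 CPM (others 47.4 to 49.8), and replicate 3 for Slc22a2 at 338 CPM (others 263 to 273).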

How the results depend on the processing

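No gene passed the adjusted threshold with the fold change in the quasi-likelihood fit, nor with a robust fit, RLE scaling, either other filter, another prior count or the length correction (added after seeing the data). DESeq2 gave 58 genes, the exact test 40 and all rats in one fit 2 (Rnf125 and Arntl), and leaving out each rat gave 0 to 3. The 206 genes at the unadjusted p with the fold change became 517 without a filter and 106 with at least 10 counts in every rat, and 193 to 303 with each rat left out. The 2657 genes at the unadjusted p ranged from 1672 to 2777 with each rat left out, and the 1617 genes whose groups did not overlap from 1908 to 2854, where fewer rats overlap less by construction. Without DN replicate 3 the 3 calls became 96 with DESeq2, 83 with the exact test, 6 without a filter, 16 with all rats in one fit, 5 with the length correction and 0 to 9 with another rat left out. The 284 genes there became 509 without a filter, 150 with at least 10 counts in every rat and 235 to 494 with another rat left out. The cause of these shifts was not tested. Replicate numbers did not pair the rats (correlations of deviations -0.219 to 0.08), and the replicate block gave 0, 160 and 1881 genes at the 3 thresholds in place of 0, 206 and 2657, and 0 calls without DN replicate 3. Among printed genes, direction changed only near 0: Nfkb1 at -0.01 with the length correction, Clock at -0.01 to 0.26, Slc34a1 at -0.13 to 0.17 and Nphs1 at -0.02 to 0.51 with each rat left out. Depth limits genes near 1 CPM, whose folds rest on few counts.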

Other observations

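Protein folding genes of the endoplasmic reticulum and heat shock list were listed in both directions. Of 44 tested 8 were higher in SIN40 and 3 lower at an unadjusted p under 0.05 (25%, beside 17.1% of all genes, median log2 fold change 0.03). Herpud1, which encodes a protein of the pathway that clears misfolded proteins, was at 172, 189.9, 207 and 173 CPM in DN and 213, 233, 283 and 251 CPM in SIN40, with no overlap (log2 fold change 0.40, SE 0.11). Atf6, the gene of a sensor of misfolded protein, was higher at 0.34 (SE 0.09), and Sdf2l1, a chaperone partner gene, was lower at -0.69 (SE 0.15).

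Of 37 NRF2 and antioxidant genes 6 were lower and 0 higher (median -0.09), or 6 and 1 without DN replicate 3. With all rats that was 16.2% of the list, beside 7.21% lower among all genes and 17.1% in either direction. Gpx4, the glutathione peroxidase gene that protects membrane lipids, was at 680.0, 723, 657 and 773 CPM in DN and 581, 566, 564 and 464 CPM in SIN40, with no overlap (log2 fold change -0.38, SE 0.10). The ferritin light chain gene Ftl1 was at -0.38 (SE 0.13). Of 22 tryptophan and melatonin genes 3 were lower and 0 higher (13.6%, beside the same shares of all genes). They were the kynurenine pathway genes Aadat (-0.40, SE 0.13), Qprt (-0.53, SE 0.17) and Haao (-0.36, SE 0.13). Without DN replicate 3 there were 3 lower and 1 higher. In the insulin, IGF and EGF list of 32 genes 5 were higher and 2 lower (21.9%, beside 17.1% of all genes). The higher ones included the PI3-kinase gene Pik3ca (0.55, SE 0.15). Without DN replicate 3 there were 8 higher and 1 lower, and with the length correction and all rats 3 higher and 2 lower. None of 10 MHC class II genes was listed in either direction by the quasi-likelihood test with all 8 rats, and 1 was higher without DN replicate 3.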
